A study of Mus musculus with 30 samples.

Results

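The 8 genes described here handle phosphatidylcholine, the main phospholipid of cell membranes, bile and lipoproteins, in mouse liver. They are Pctp, Chka, Pcyt1a, Chpt1, Pemt, Lpcat3, Abcb4 and Lipc, found by gene symbol among 14259 genes listed at postnatal day (PND) 1 and PND21 and 13091 genes listed at PND42. Pctp was chosen by its values in earlier results of these data, in which it was lower at PND21 than at PND1 and higher in exposed than in control livers at PND21, and the other 7 genes as its pathway. Those comparisons are therefore given for the 8 genes as a description with no test, and the other comparisons are tested. All 8 genes were listed at each age and passed the filter on low values in every comparison.

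Phosphatidylcholine is made in the liver by a pair of routes. In the CDP-choline route, choline is phosphorylated by choline kinase (Chka), activated by the rate-limiting CTP:phosphocholine enzyme (Pcyt1a) and joined to diacylglycerol by cholinephosphotransferase (Chpt1). In the methylation route, which is active mainly in hepatocytes, Pemt converts phosphatidylethanolamine to phosphatidylcholine with methyl groups from S-adenosylmethionine. Lpcat3 re-attaches polyunsaturated acyl chains to lysophosphatidylcholine, Pctp encodes a soluble protein that binds phosphatidylcholine and moves it between membranes, Abcb4 moves it across the canalicular membrane into bile, and Lipc encodes hepatic lipase, which hydrolyses lipids of circulating lipoproteins.

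Cadmium exposure took place during gestation, at a labelled 500 ppb of CdCl2, and the livers are those of CD-1 (outbred) mice from exposed or control pregnancies. There were 4 exposed and 4 control females at PND1, 3 exposed and 3 control females at PND21, and 4 exposed and 4 control mice of each sex at PND42. The libraries are of whole liver RNA, in which fewer cells of a type and less RNA per cell cannot be told apart, and the labels do not say which animals shared a litter or were pooled. The 1 agent in the labels is cadmium chloride, no transgene or other treatment is named, and p-values measure only the spread between these libraries.

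Levels are given as normalised read counts (mean ± SD, or each library in order of its replicate number; PND42 was scaled apart from the other ages), and differences as log2 fold changes (± SE) on the scale of log2(normalised count + 1). Calls are those of limma at a threshold of 0.05, after Benjamini-Hochberg adjustment across the whole table. Read totals over the listed genes were 22.0 to 40.1 M per library. All 6 hepatocyte markers were measured at each age, with summed levels of at least 964994 normalised counts in every library. Xist was at least 33940 in each PND42 female library and at most 53.8 in each PND42 male library. The 1 PND42 female control library with no replicate number carries in its column name a tag that the labels give to a PND21 control, so its sample is uncertain. It and 3 PND42 male control libraries are called unnumbered, and PND42 results were also computed without them.

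The promoters of Pctp and Chpt1 are shown because these genes differed most between the ages, in opposite directions. The sequences run from 250 bases before to 50 bases after the RefSeq start site, on build GRCm38.p6, and both genes lie on the minus strand. Pctp is at chr11:90002845-90003144 and Chpt1 at chr10:88503921-88504220. Capitals mark every match, on either strand, to the CCAAT box (CCAAT), the GC box (GGGCGG, which reads CCGCCC on the other strand) and the nuclear receptor core site (AGGTCA, or TGACCT).
Pctp: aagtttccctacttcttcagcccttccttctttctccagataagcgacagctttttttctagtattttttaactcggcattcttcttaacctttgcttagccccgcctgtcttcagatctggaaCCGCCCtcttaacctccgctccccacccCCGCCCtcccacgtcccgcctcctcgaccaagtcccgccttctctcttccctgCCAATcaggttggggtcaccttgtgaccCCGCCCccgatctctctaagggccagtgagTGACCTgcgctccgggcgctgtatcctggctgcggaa
Chpt1: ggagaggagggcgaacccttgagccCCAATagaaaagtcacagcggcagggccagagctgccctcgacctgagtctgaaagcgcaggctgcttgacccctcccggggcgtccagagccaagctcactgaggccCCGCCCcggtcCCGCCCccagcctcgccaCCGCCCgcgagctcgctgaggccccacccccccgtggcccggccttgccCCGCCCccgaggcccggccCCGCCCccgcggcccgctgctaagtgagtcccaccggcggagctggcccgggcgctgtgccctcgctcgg

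The Pctp promoter held 1 CCAAT box, 3 GC boxes and 1 receptor core site, the last in the first 50 bases of the transcript. The Chpt1 promoter held 1 CCAAT box, 5 GC boxes and no receptor core site, and its GC content was 75.3%, against 56.7% for Pctp. Neither window held TATAAA, the E box CACGTG or the STAT site TTCNNNGAA. Of 32851 RefSeq mouse promoters of this length, 37.4% held CCAAT, 35.7% GGGCGG, 16.3% AGGTCA, 13.6% TATAAA, 7.15% CACGTG and 8.30% TTCNNNGAA. None of the motifs overlapped another in these windows.

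Pctp was high in newborn livers and low at PND21. The PND21 control livers had 48.1, 61.1 and 36.0 normalised counts, from 33, 46 and 26 reads, against 1604, 2662, 2465 and 2302 in PND1 control livers. Every PND21 control was far below every PND1 control. The log2 fold change was -5.52 ± 0.23, with means of 48.4 ± 12.6 at PND21 (n = 3) and 2258 ± 460 at PND1 (n = 4). Pctp lies on chromosome 11 from 89982665 to 90002894 (mm10, GENCODE vM21) and is protein coding.

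The erythroid markers moved the same way between these ages. Their summed level (6 of 6 measured, none at 0) ranged over 25919 to 80294 in PND21 controls and 211099 to 343500 in PND1 controls. The 4 B cell markers summed to 91.9 to 148.2 in PND21 controls and 1350 to 1761 in PND1 controls. The part of these cells in the Pctp levels was not tested.

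**Figure D1:**
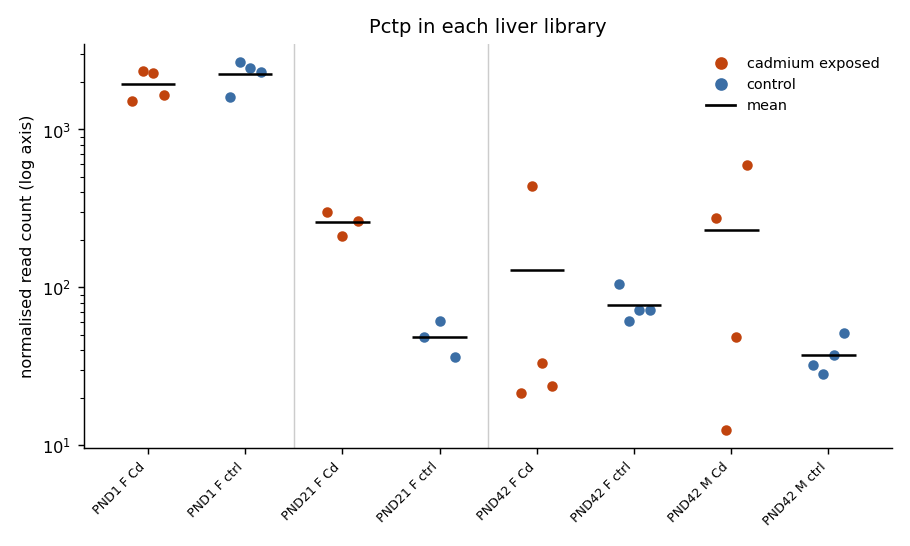
Pctp in each of the 30 liver libraries, by age, sex (F, M) and group (Cd, cadmium exposed; ctrl, control), as normalised read counts on a log axis, with a bar at the mean (PND42 was scaled apart). Newborn libraries lie above 1500, PND21 exposed libraries between 210 and 300, and PND42 exposed libraries spread from 12.6 to 592.

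At PND21, Pctp was higher in exposed livers. They had 300, 210 and 264 normalised counts, from 285, 225 and 221 reads, against 48.1, 61.1 and 36.0 in control livers. The groups did not overlap. Exposed livers averaged 258 ± 45.3 and control livers 48.4 ± 12.6 (n = 3 each), which is 2.41 ± 0.29 on the log2 scale. The exposed level lay well below the PND1 levels of either group. The erythroid markers did not share this difference, with sums of 27334 to 45327 in exposed and 25919 to 80294 in control livers. B cell marker sums were 134 to 241 in exposed and 91.9 to 148.2 in control livers. All 4 B cell markers averaged higher in exposed livers. Of these, Cd79b (47.3 in exposed, 22.4 in control livers, adjusted p = 0.516) and Ms4a1 (30.7, 17.2, 0.587) had groups apart. Hepatocyte marker sums were 1531870 to 2418560 in exposed and 2118190 to 4521110 in control livers. Of the hepatocyte markers Apoa1 alone had groups apart, lower in exposed livers (adjusted p = 0.543). Cholangiocyte sums were 1060 to 3892 in exposed and 1230 to 2104 in control livers. Stellate and matrix marker sums (5 of 5 measured, none at 0) were 15803 to 32071 in exposed and 12912 to 17339 in control livers. Of these markers the collagen genes were higher with groups apart, Col1a1 at 2698 in exposed and 871 in control livers (1.52 ± 0.35, adjusted p = 0.348), Col1a2 at 3807 in exposed and 1717 in control livers (1.04 ± 0.33, adjusted p = 0.447) and Col3a1 at 8004 in exposed and 4877 in control livers (0.67 ± 0.33, adjusted p = 0.524). Dcn and Lrat overlapped between the groups. The part of these cells in the Pctp difference was not tested. The comparison chose Pctp, so the call of 1 of the 8 genes there supports nothing. Across all genes tested 0.036% were called and 16.6% had groups that did not overlap.

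At PND1 the exposed livers had 1507, 2354, 2278 and 1665 normalised counts of Pctp, against 1604, 2662, 2465 and 2302 in controls. The ranges overlapped over most of their length. The log2 fold change was -0.21 ± 0.20 (limma, adjusted p = 0.625).

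At PND42 exposed libraries of both sexes spread much more widely in Pctp than their controls. Exposed females had 21.4, 437, 33.1 and 23.6 normalised counts, against 106, 61.0, 71.8 and 71.5 in control females (replicates 2, 3, 4 and the unnumbered library). Of the exposed females, 1 was above every control and the other 3 were below every control. On the log2 scale the difference was -0.52 ± 1.04 (adjusted p = 0.721), while the arithmetic mean was higher in exposed females (129, against 77.5 in control females). Without the unnumbered control female it was -0.55 (adjusted p = 0.745). Without exposed replicate 2 the log2 fold change was -1.53 (adjusted p = 0.193).

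Exposed males had 276, 12.6, 48.3 and 592 normalised counts of Pctp, against 32.3, 28.4, 37.1 and 51.5 in control males. Of the exposed males 2 were above every control, 1 lay within the control range and 1 was below it. The log2 fold change was 1.45 ± 1.04 (adjusted p = 0.641), and it was 2.43 without exposed replicate 2 and 0.61 without exposed replicate 4. The difference between the sexes in the exposure effect was -1.97 ± 1.47 (adjusted p = 0.428). Reads behind the low libraries were few, 11 in exposed male replicate 2 and 20 in exposed female replicate 1, against 687 in exposed male replicate 4.

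The number that opens a sample tag is shared by some libraries of different groups, and the labels do not say what it marks. Both PND42 libraries with number 12 were high in Pctp, at 437 in an exposed female and 276 in an exposed male. The highest PND42 library, an exposed male at 592, carried number 17. The libraries with number 11 had 300 at PND21 and 21.4 in a PND42 female. Those with number 13 had 1507 at PND1, 210 at PND21 and 12.6 in a PND42 male. PND42 was scaled apart, so its counts are listed here and not compared with those of the other ages.

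Among PND42 controls Pctp was higher in every female (lowest 61.0) than in any male (highest 51.5). The log2 fold change of females over males was 1.04 ± 1.04 (adjusted p = 0.595), and the adjusted p was 0.101 in a fit of these groups alone.

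The order of the 8 genes by level, per kilobase of exon, shows where Pctp stood. At PND1 exposed livers had Pctp at 716 ± 156.9 normalised counts per kb, below Lpcat3 (769 ± 84.4). In PND1 control livers Pctp was the third of the 8, at 829 ± 169, after Pemt (3392 ± 726) and Lipc (2858 ± 199). It was followed by Lpcat3 (641 ± 27.6), Abcb4 (583 ± 78.9) and Chka (479 ± 178), with Pcyt1a (170 ± 43.6) and Chpt1 (50.8 ± 7.75) last. Pemt and Lipc, Pctp and Lpcat3, Lpcat3 and Abcb4, and Abcb4 and Chka were neighbours whose SD ranges met. In PND21 controls Pctp was last, at 17.8 ± 4.62 per kb, below Pcyt1a at 148.7 ± 19.5, and Chpt1 was at 350 ± 28.6. Pctp also was last by mean in all 4 PND42 groups, at 47.3 ± 75.4 per kb in exposed and 28.5 ± 7.13 in control females, and 85.3 ± 98.0 in exposed and 13.7 ± 3.71 in control males. In exposed livers its SD reached past the mean of the next gene, Chka (120 ± 16.5 per kb in females and 95.3 ± 35.4 in males).

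The genes whose log2 levels followed Pctp most closely over the 14 PND1 and PND21 libraries were Slc6a4, the serotonin transporter (Pearson r = 0.990), Col11a1, a fibrillar collagen chain (0.986), Stk26, a kinase (0.985), Atp2a3, a calcium pump (0.982), Ppp1r18 (0.981) and Fgd3 (0.980). These libraries fall into 2 ages with separate levels, so r is a description and carries no test. The genes were picked by likeness to Pctp over libraries that include the PND21 groups, so their levels there are no separate result. Slc6a4 ranged over 53.3 to 80.2 normalised counts in PND21 exposed and 20.8 to 27.9 in PND21 control livers, and 199 to 321 in PND1 exposed and 194 to 362 in PND1 control livers. Stk26 ranged over 39.5 to 46.4 in PND21 exposed and 15.2 to 19.0 in PND21 control livers. Of the 7 other genes of the set, Chpt1 ran most against Pctp over these libraries (r = -0.946) and Chka most with it (0.751).

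Over the 16 PND42 libraries the likeness was looser, led by Armc10 (0.778), the transcription factor gene Maff (0.75), the fructose transporter gene Slc2a5 (0.733), the ribosomal protein gene Rpl26 (0.670), Rpap3 (0.643) and the peroxisomal oxidase gene Acox3 (0.640). As these genes were picked by likeness to Pctp over the same libraries, their levels there are no separate result. Armc10 was at 355, 335 and 310 normalised counts in the 3 libraries highest in Pctp. Rpl26 had 2528 and 4224 in exposed female replicate 2 and exposed male replicate 4, and 3155 in the unnumbered control female, against 78.9 to 278 in the other 13. Genes with near-identical copies, such as Rpl26, may share reads with those copies.

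**Figure D2:**
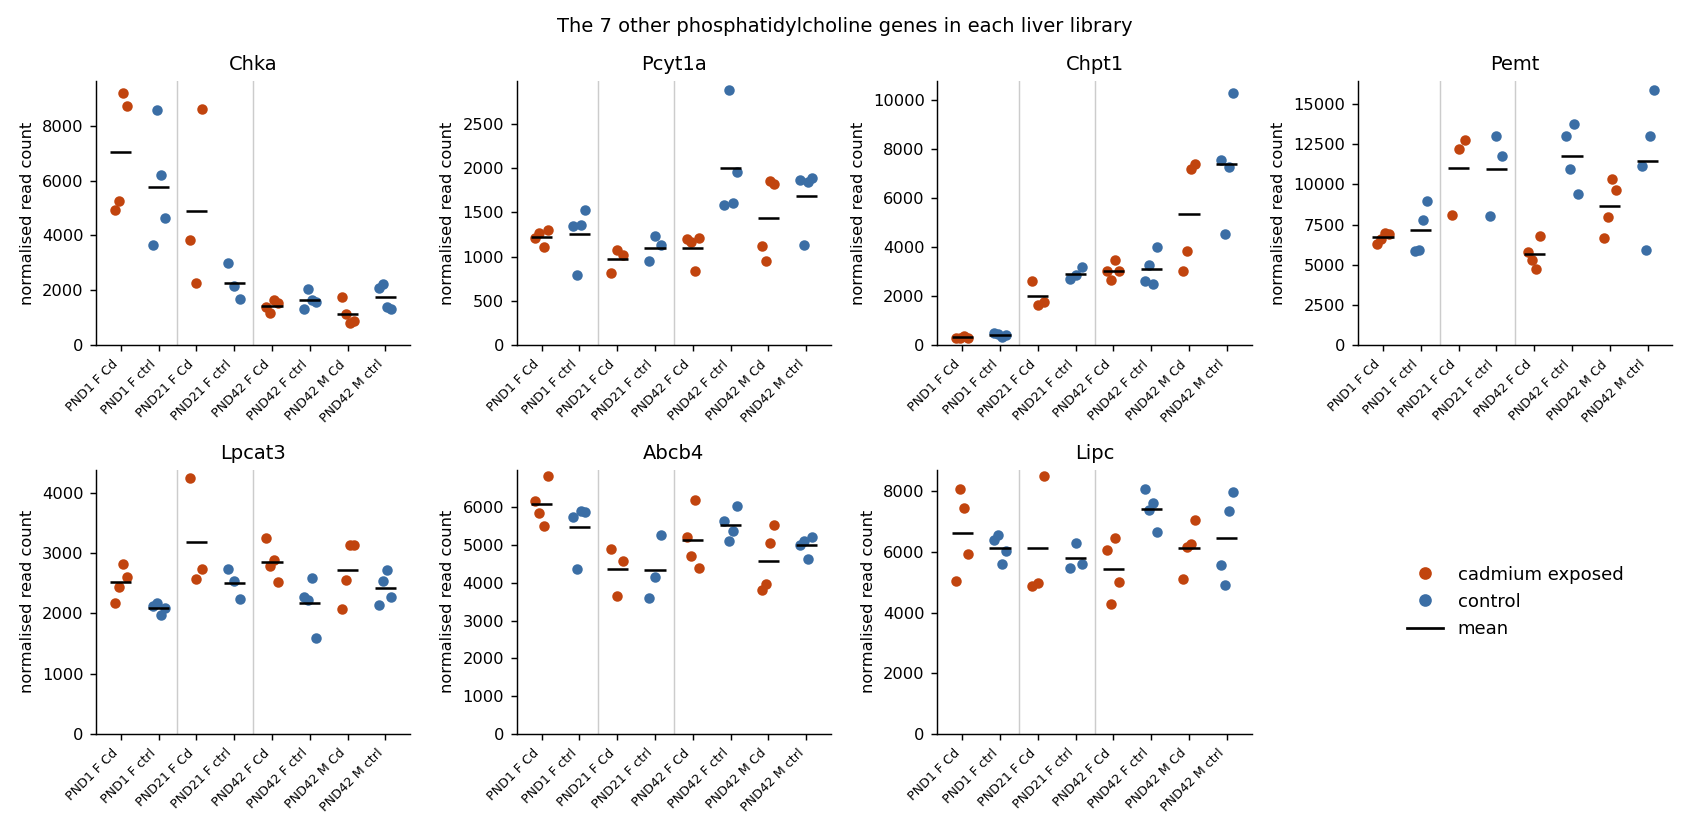
Normalised read counts of the 7 other phosphatidylcholine genes in each of the 30 liver libraries, 1 panel a gene (PND42 was scaled apart from the other ages), on linear axes from 0, by age, sex (F, M) and group (Cd, cadmium exposed; ctrl, control), with a bar at the mean. Chpt1 is near the axis at PND1, and Pemt in PND42 exposed females lies below all 4 of their controls.

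In the CDP-choline route the 3 genes behaved differently with age. Chpt1 (chromosome 10, 88452745 to 88504073) had 2709, 2860 and 3176 normalised counts in PND21 controls, against 487, 459, 341 and 404 in PND1 controls. All PND21 libraries were above all PND1 libraries, and the log2 fold change was 2.79 ± 0.16. Chka (chromosome 19, 3851773 to 3894369) was lower at PND21, at 3002, 2159 and 1669 in PND21 controls, against 3648, 8565, 6215 and 4633 in PND1 controls (-1.31 ± 0.30). Pcyt1a (chromosome 16, 32430921 to 32475070) had overlapping ranges, 947 to 1232 in PND21 controls and 789 to 1532 in PND1 controls (-0.15 ± 0.22).

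Pemt (chromosome 11, 59970614 to 60046489) was 0.61 ± 0.23 higher on the log2 scale at PND21, with overlapping ranges (10939 ± 2572 in PND21 controls, 7138 ± 1528 in PND1 controls). Lpcat3 (chromosome 6, 124663027 to 124704418) averaged 2502 ± 249 in PND21 controls and 2094 ± 90.0 in PND1 controls, with groups that did not overlap. Abcb4 (chromosome 5, 8893717 to 8959231) averaged 4346 ± 847 in PND21 controls and 5475 ± 740 in PND1 controls, and Lipc (chromosome 9, 70798128 to 70952226) averaged 5797 ± 442 at PND21 and 6145 ± 427 at PND1. The last pair overlapped between the ages. In all, 2 of the 8 genes were called higher at PND21 and 2 lower, where 26% of all genes tested were called higher and 26.9% lower (52.9% in either direction), and 4 of 8 had groups that did not overlap, against 55.3% of all genes. Nothing is read from these shares, since the comparison chose Pctp. Scaling by total reads in place of the deposited scaling shifted the median of all genes by -0.51. It gave 1722 genes higher and 6587 lower in place of 3701 and 3826, 6 of the 8 genes called in place of 4, and Pctp -6.03. Over the alternatives and left-out libraries Lpcat3 ranged from -0.26 to 0.33 (0.25 as deposited) and Pemt from 0.10 to 0.82 (0.61 as deposited). The direction of the Lpcat3 difference therefore depended on the setting.

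Other genes of these pathways were measured at both ages, and most of those called were higher at PND21. Of 69 tested, 29 were higher and 18 lower (limma, adjusted p under 0.05), where 26% of all genes were higher and 26.9% lower, with a median log2 fold change of 0.37, against 0.01 over all genes tested. With total-read scaling 16 were higher and 21 lower, and Nr5a2, Lclat1 and Abca1 changed sign. The list counts and fold changes that follow are on the deposited scaling, with counts under total reads beside them. Among partners and relatives of PCTP, 4 of 6 rose and 1 fell (2 and 1 with total reads). Acot13, a thioesterase known to bind PCTP, averaged 2288 in PND21 controls and 691 in PND1 controls (1.72 ± 0.14), Pltp, the plasma phospholipid transfer protein, rose by 1.10, Stard7 by 0.63, and Pitpna, a phosphatidylinositol carrier, fell by 0.74. Among the CDP-choline and choline uptake genes 3 of 10 rose and 4 fell, as many as with total reads. Pcyt1b, which encodes the other form of the Pcyt1a enzyme, averaged 8.24 in PND21 and 233 in PND1 controls, and the choline transporter-like gene Slc44a4 averaged 19.9 at PND21 and 337 at PND1. The PND21 mean of Pcyt1b lies under the filter of 10 normalised counts, so this gene passed the filter through its PND1 libraries. The phosphatidate phosphatase gene Lpin1 rose (19158 at PND21 and 1312 at PND1).

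In the phosphatidylethanolamine and phosphatidylserine list 3 of 7 rose and 3 fell (2 and 3 with total reads). Etnk2, an ethanolamine kinase, rose by 2.84 ± 0.15 and Pcyt2, which acts next in that route, by 1.31 ± 0.20, while the serine synthase gene Ptdss2 fell by 1.99 and the decarboxylase gene Pisd by 1.15. Of 22 genes of acyl chain remodelling and hydrolysis 5 rose and 10 fell (2 and 13 with total reads). Lpcat1, which makes saturated phosphatidylcholine and is best known from lung surfactant, averaged 122 in PND21 and 1837 in PND1 controls, and Mboat2 averaged 11.0 at PND21 and 236 at PND1. The endothelial lipase gene Lipg averaged 235 at PND21 and 4.86 at PND1. Its PND1 mean lies under the filter of 10 normalised counts, so it passed the filter through its PND21 libraries. The glycerophosphodiesterase gene Gde1 rose by 1.78.

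Of 9 genes of choline oxidation and methyl supply 4 rose (Ahcy by 1.64, Sardh by 0.96, Mat1a by 0.88, Aldh7a1 by 0.68) and none of the 9 fell, and 1 rose with total reads. Of 7 genes of lipid export 5 rose, among them the canalicular pump gene Abcc2 (1.39), the sterol transporter genes Abcg5 (2.14) and Abcg8 (1.83), and the aminophospholipid flippase gene Atp8b1 (0.73), and none of the 7 fell, and 3 rose with total reads. Of 8 regulator genes 5 rose, led by Srebf1 (2.43), the bile acid receptor gene Nr1h4 (2.35), the liver X receptor gene Nr1h3 (1.33) and Hnf4a (1.03), and none of the 8 fell, and 3 rose with total reads.

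The exposure comparison at PND21 chose Pctp, so the smaller differences of the 7 other genes there are a description and no result. Chpt1 had 2634, 1657 and 1741 normalised counts in exposed livers, against 2709, 2860 and 3176 in controls, so that the groups did not overlap (-0.56 ± 0.22). Chka had 3822, 2253 and 8607 in exposed livers, against 3002, 2159 and 1669 in controls, with exposed replicate 3 far above the rest (0.93 ± 0.47). For Pcyt1a, Pemt, Lpcat3, Abcb4 and Lipc the log2 fold changes lay from -0.19 to 0.32 and the groups overlapped. None of the 69 other pathway genes passed (limma), with a median log2 fold change of 0.03, against -0.01 over all genes. The genes of lowest p were Pnpla7, a lysophospholipase gene (0.61 ± 0.20, adjusted p = 0.452), and Lpcat1 (195 in exposed and 122 in control livers, 0.68 ± 0.23, adjusted p = 0.46). Srebf1 averaged 6267 in exposed and 11108 in control livers with groups apart (-0.99 ± 0.40, adjusted p = 0.497), and Acot13 averaged 1703 in exposed and 2288 in control livers (-0.42 ± 0.17, adjusted p = 0.499).

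In newborns none of the 8 genes was called and none had groups that did not overlap, where limma called 0% of 14059 genes (2039 had an unadjusted p under 0.05) and 7.76% did not overlap. Chpt1 had 297, 299, 365 and 301 normalised counts in exposed livers, against 487, 459, 341 and 404 in controls. Only 1 exposed library reached into the control range (-0.41 ± 0.14, adjusted p = 0.288). Lpcat3 averaged 2514 ± 276 in exposed and 2094 ± 90.0 in control livers (0.26 ± 0.11, adjusted p = 0.337). For the other 6 genes the log2 fold changes lay between -0.21 and 0.30, and that of Pcyt1a was 0.00 ± 0.19.

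None of the 68 other pathway genes tested in newborns passed, and 26 of the 68 had a higher mean log2 level in exposed livers. The genes of choline oxidation and methyl supply had a median log2 fold change of -0.52, with 1 of 9 higher in exposed livers. The 6 transfer genes had a median of -0.26 with 0 higher, against -0.01 over all genes. Hepatocyte marker sums were 964994 to 1394490 in exposed and 1112060 to 1946810 in control newborns. Among these markers Cps1 was at -1.14 ± 0.29 (limma, adjusted p = 0.244) and Ttr at 0.09 ± 0.20 (adjusted p = 0.867). The part of hepatocytes in the pathway differences was not tested. Ahcy, which clears the S-adenosylhomocysteine left by methylation, averaged 768 in exposed and 2790 in control livers with overlapping ranges (-2.01 ± 0.45, adjusted p = 0.244). Bhmt, which remethylates homocysteine with betaine, averaged 30888 in exposed and 44472 in control livers (-0.52 ± 0.16, adjusted p = 0.261), with groups apart. Stard7, a phosphatidylcholine carrier of mitochondria, averaged 1847 in exposed and 2490 in control livers (-0.42 ± 0.13, adjusted p = 0.261), with groups apart as well.

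**Figure D3:**
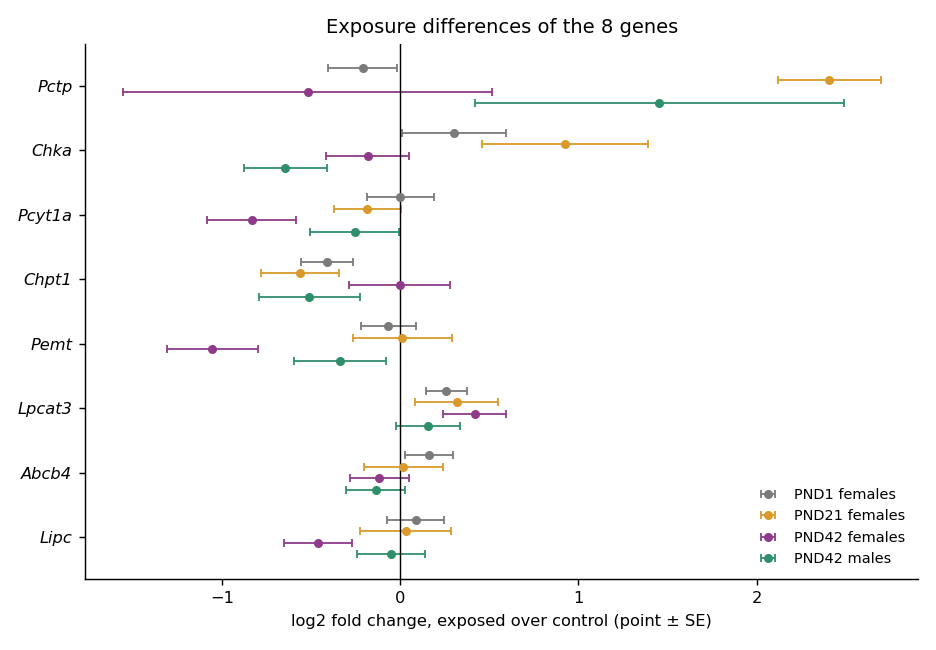
Log2 fold changes (exposed over control, point ± SE) of the 8 genes in PND1, PND21 and PND42 females and PND42 males. Pctp at PND21 (2.41) lies furthest from 0, in a comparison that chose it and was not tested for these genes. Pemt (-1.06) and Pcyt1a (-0.83) in PND42 females are the tested differences that passed.

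In PND42 females 2 of the 8 genes were called, both lower in exposed livers, where 40.2% of all genes tested were called (18.9% higher, 21.4% lower). Pemt had 5788, 5268, 4746 and 6789 normalised counts in exposed females, against 13029, 10934, 13730 and 9379 in control females. Every exposed library was below every control. Means were 5648 ± 872 in exposed and 11768 ± 1987 in control females (n = 4 each), and limma gave -1.06 ± 0.26 on the log2 scale (adjusted p = 0.0038). Pcyt1a had 1198, 1163, 836 and 1214 in exposed females, against 1586, 2879, 1605 and 1954 in control females. Here too the groups did not overlap, and the log2 fold change was -0.83 ± 0.25 (adjusted p = 0.013). Without the unnumbered control female Pemt was at -1.16 (adjusted p = 0.00488) and Pcyt1a at -0.83 (adjusted p = 0.028). The adjusted p of Pcyt1a was 0.0507 without exposed replicate 3 and 0.0548 without control replicate 3.

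Lipc was also lower in every exposed female, at 6050, 4278, 6472 and 5011, against 8066, 7387, 7621 and 6653 in control females, and missed the threshold (-0.46 ± 0.19, adjusted p = 0.0628). Lpcat3 averaged 2859 ± 300 in exposed and 2166 ± 418 in control females (0.42 ± 0.18, adjusted p = 0.0715). Lipc passed in a fit of females alone (adjusted p = 0.0304) and without the unnumbered libraries (0.0412), and Lpcat3 with scaling by total reads (0.0476) or by the upper quartile (0.0495) and without control replicate 4 (0.0444). Chka, Chpt1 and Abcb4 overlapped between the groups, with log2 fold changes from -0.18 to 0.00. The groups did not overlap for 3 of the 8 genes, against 45.9% of all genes, so neither share was above that of all genes.

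The RNA make-up of the same libraries also differed. Mitochondrially encoded reads were 22.2 to 35.5% of reads in exposed and 5.25 to 12.8% in their controls. The nuclear RNAs Malat1 and Neat1 summed to 105107 to 126037 normalised counts in exposed females, against 23613 to 50021 in control females. The 6 hepatocyte markers summed to 1200870 to 2202540 in exposed and 2736920 to 3783520 in control females. None of the 3 measures overlapped between the groups. Their part in the Pemt and Pcyt1a results therefore cannot be told apart from exposure. The nuclear RNAs and hepatocyte markers were not tested in any fit. The fit given next took only the mitochondrial share as a covariate, and it cannot separate that share from exposure. With the mitochondrial share as a covariate Pemt was at -0.41 (adjusted p = 0.671), Pcyt1a at -0.11 (adjusted p = 0.923), and 73 genes were called in place of 5269.

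In males the mitochondrial share overlapped between the groups, at 14.5 to 29.7% in exposed and 9.03 to 24.8% in control libraries. The control male with the highest share, 24.8%, had the lowest Pemt (5889) and Pcyt1a (1129) of the control males. Among exposed males the library at 29.7% had 7937 of Pemt and 948 of Pcyt1a, and the one at 22.3% had 6681 of Pemt and 1123 of Pcyt1a.

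**Figure D4:**
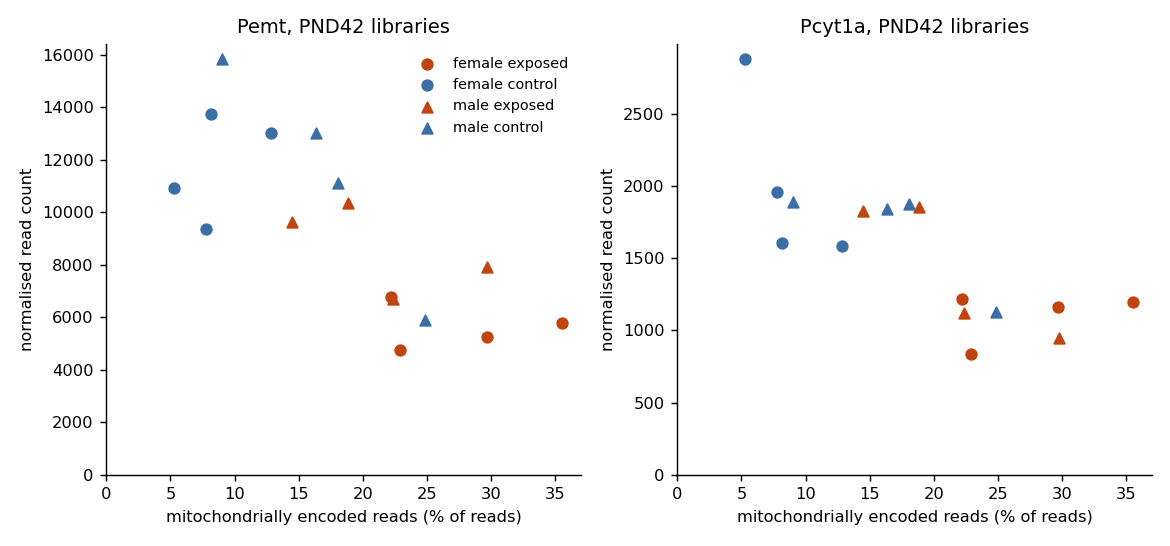
Pemt (left) and Pcyt1a (right) in the 16 PND42 libraries, as normalised read counts against the share of mitochondrially encoded reads in percent, for exposed and control females (circles) and males (triangles). The exposed females lie at 22.2 to 35.5% and low levels, and the control females at 5.25 to 12.8% and higher levels.

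Of 64 other pathway genes tested in PND42 females 10 rose and 14 fell, near the 18.9% higher and 21.4% lower over all genes, with a median log2 fold change of -0.09, against 0.00 over all genes. The counts of single lists that follow are read against these shares. With the mitochondrial share as a covariate 0 were called. Genes that make phosphatidylethanolamine, the substrate of Pemt, or phosphatidylserine moved in both directions. Pcyt2 averaged 40919 in exposed and 17716 in control females (1.20 ± 0.19, adjusted p = 0.000165), while Pisd (191 in exposed females, 434 in controls, -1.18 ± 0.18, adjusted p = 0.000107), Ptdss1 (-1.05) and the ethanolamine phosphotransferase gene Selenoi (-0.76) fell. In the CDP-choline list Chkb, the second choline kinase, rose (2887 in exposed and 1289 in control females, 1.18 ± 0.22) and so did Lpin3 (1.00).

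Of 9 genes of choline oxidation and methyl supply 2 fell and none rose. They were Gnmt, which uses up surplus S-adenosylmethionine (9389 in exposed females, 28129 in controls, -1.53 ± 0.31, adjusted p = 0.00102), and Aldh7a1, which makes betaine (-1.43 ± 0.25, adjusted p = 0.000307). In the remodelling and hydrolysis list 3 of 19 rose and 5 fell. Gpcpd1, which splits glycerophosphocholine, averaged 7903 in exposed females, against 2466 in controls (1.65 ± 0.31). Pla2g12b (-1.37) and Pnpla8 (-1.13), members of phospholipase families by name, and the acyltransferase gene Mboat7 (-0.76) fell.

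Of 6 transfer genes Pitpnb fell by 0.55 and Pitpna by 0.38, and the PCTP partner Acot13 did not pass (-0.42 ± 0.25, adjusted p = 0.182). Of 7 export genes Abcg5 rose (9884 in exposed and 3282 in control females, 1.61 ± 0.36) and none fell. Among the regulators Ppara (8294 in exposed and 2494 in control females, 1.71 ± 0.29), Nr5a2 (0.78) and Nr1h2 (0.58) rose and Hnf4a fell by 0.90.

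In PND42 males none of the 8 genes was called and none had groups that did not overlap. Limma called 0% of all genes tested, with 932 at an unadjusted p under 0.05, and 1.73% of genes did not overlap. Chka had 1745, 1148, 807 and 882 normalised counts in exposed males, against 2096, 2225, 1389 and 1322 in control males (-0.65 ± 0.23, adjusted p = 0.622). Chpt1 had 3022, 3826, 7179 and 7386 in exposed males, against 7531, 4511, 7250 and 10260 in control males (-0.51 ± 0.29, adjusted p = 0.622). Pemt was at 8652 ± 1659 in exposed and 11468 ± 4201 in control males (-0.34 ± 0.26, adjusted p = 0.653). None of the 64 other pathway genes passed in males. Ahcy averaged 5740 in exposed and 19848 in control males with groups apart (-1.84 ± 0.48, adjusted p = 0.622).

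The exposure effect was not shown to differ between the sexes for any of the 8 genes, where 7.91% of all genes tested differed. That of Pemt was -0.72 ± 0.37 (adjusted p = 0.229) and that of Pcyt1a was -0.58 ± 0.35 (adjusted p = 0.322), females minus males. Over all genes 503 differences were above 0 and 533 below, in place of which total-read scaling gave 228 and 551 and upper-quartile scaling 389 and 668. Of the other pathway genes 3 of 64 differed by sex in their exposure effect: Pcyt2 (1.00 ± 0.27, adjusted p = 0.0328), Pisd (-0.93 ± 0.25, adjusted p = 0.0327) and Pla2g12b (-1.15 ± 0.25, adjusted p = 0.0134). Without the unnumbered libraries none of the 3 was called, and without the unnumbered female alone 1 was.

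Between control females and control males at PND42, 1 of the 8 genes was called, where 6.93% of all genes were. Chpt1 had 2608, 3256, 2505 and 4008 normalised counts in control females, against 7531, 4511, 7250 and 10260 in control males. All females were below all males, and the log2 fold change was -1.22 ± 0.29 (adjusted p = 0.0166). Without the unnumbered female it was -1.36 (adjusted p = 0.0224). Without all unnumbered libraries, which leaves 1 control male assumed to vary like the other groups, it was -1.44 (adjusted p = 0.169). Pctp and Chpt1 were the 2 of 8 genes whose groups did not overlap, against 12.4% of all genes. The split of calls over all genes moved with the scaling, with 307 higher and 600 lower in females as deposited, 1875 and 235 with total reads and 500 and 391 with the upper quartile. Of the other pathway genes Pltp (899 in females and 1973 in males, -1.23 ± 0.32) and Pla2g6, a phospholipase gene (-0.63 ± 0.18), were lower in females, and neither was called without the unnumbered female.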

How the data were processed

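Whole liver RNA was sequenced in 30 libraries. FastQC, STAR, featureCounts and the build mm10 are named, per the submitters' processing notes, with no versions. The deposited values are log2 of a read count divided by a size factor, plus 1, which was read from the values: in each library 100% of them gave back whole reads within 0.1. In the deposited tables baseMean, a signal averaged across libraries, matches the mean normalised count of the 14 PND1 and PND21 libraries or the 16 PND42 libraries, so the authors scaled PND42 apart, and no level was compared between it and the other ages.

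The 8 genes and the pathway and marker lists were chosen with earlier results of these data known. Libraries were grouped by the labels. limma 3.58.1 (R 4.3.3) with intensity trend and robust moderation was fitted to the deposited log2 values of all genes with at least 10 normalised counts in as many libraries as the smallest group, within the 2 groups compared or, at PND42, over all 4. Tests were two-sided, with Benjamini-Hochberg adjustment and a threshold of 0.05. The recovered reads entered limma voom as an alternative. The fits were tested on simulated data. Of added log2 changes of 1, they recovered 65% at PND1, 17.2% at PND21 and 49% in PND42 females. Of added log2 changes of 2, they recovered 95%, 59% and 89%. Genes not called at PND21 may therefore still differ. Named pathway genes were up to 3 of lowest p a list and comparison, or up to 4 where a gene passed, and the text prints a part of them; 1 pathway gene counted in its list is not reported here.

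Totals of 22.0 to 40.1 M reads limit precision for low genes by counting error. No pair of libraries in a group had over 0.559% of genes at the same read count. Positions and exon lengths are from GENCODE vM21, promoters from RefSeq (all 8 genes matched). Alternatives were other scalings, pseudocounts of 0.5 and 5, no filter, limma voom on recovered reads, no moderation, a replicate block, left-out libraries, fits of 2 groups and the mitochondrial share as a covariate.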

Additional observations from a re-analysis of the deposited data

Results flagged for a closer look

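Each of the 8 genes was checked in each group of 4 libraries, which gave 48 sets of values. In 5 of the 48 sets, 1 library lay far from the other 3 in that gene. Its gap to the nearest neighbour was beyond Dixon's 95% critical value, where chance flags about 1 in 20 sets. The sets share libraries and are not independent. Pctp in PND42 exposed female replicate 2 was at 437 normalised counts, the highest of its group. Pcyt1a was lowest at 836 in PND42 exposed female replicate 3 and lowest at 1129 in an unnumbered PND42 control male. Chpt1 was highest at 365 in PND1 exposed replicate 3, and Abcb4 was lowest at 4370 in PND1 control replicate 2.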

How the results depend on the processing

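Over the alternatives and left-out libraries Pctp ranged over 2.22 to 2.64 at PND21 (exposed over control, log2). Between the ages it ranged over -6.03, with total reads, to -5.33. These comparisons chose Pctp, and their groups did not overlap, so leaving out a library could not turn its direction. The kept direction therefore supports nothing. Pctp passed in no tested comparison. Its call at PND21 was lost, leaving 0 of the 8 genes called, with voom and without trend and robust moderation (2 genes called in each), with the replicate block (8 genes) and on leaving out any 1 of the 6 libraries (0 of the 8 genes, 0 to 14 genes over all). The cause of these and the following changes was not tested. In PND42 females the mitochondrial covariate left 73 genes and 0 of the 8 called, and gave Pctp 1.20, Chpt1 1.01 and Abcb4 0.081. The Chpt1 difference there, near 0, turned to 0.044 with total reads, 0.028 with the upper quartile and 0.13 with the replicate block. Pcyt1a lost its call with the block (adjusted p = 0.0633), which left 1 of the 8 genes called. Other differences near 0 turned sign. Between the ages Lpcat3 ranged over -0.26 to 0.33. With total reads Pcyt1a was 0.053 at PND1, Lipc 0.050 in PND42 males (0.022 with the upper quartile), and Abcb4 -0.034 (-0.022) in the difference between sexes. Between control females and males, total reads gave 2110 genes, 2 of the 8 (Lipc added), Chka 0.30 and Lpcat3 0.19, the upper quartile gave Chka 0.026, and a fit of these groups alone gave 392 genes. Without all unnumbered libraries, genes called were 9 in PND42 males, 275 for the difference between sexes (Lpcat3 -0.050) and 100 between the sexes (0 of the 8, Lpcat3 0.13).

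Leaving out libraries gave these ranges: at PND1 0 to 5 genes, Pcyt1a -0.21 to 0.11, Pemt -0.16 to 0.050 and Lipc -0.018 to 0.21; in PND42 females 1 to 3 of the 8 genes and Chpt1 -0.10 to 0.13; in PND42 males 0 to 27 genes and Lipc -0.18 to 0.13; for the difference between sexes 275 to 1929 genes, Lpcat3 -0.050 to 0.35 and Abcb4 -0.075 to 0.12; and between control sexes 100 to 1979 genes, Chka -0.35 to 0.053, Lpcat3 -0.27 to 0.13 and Pemt -0.18 to 0.30. Replicate numbers shared by groups did not pair the libraries: deviations of same-numbered libraries correlated at -0.080 to 0.233, and with the replicate block genes called were 0 at PND1 and 4987 in PND42 females. No paired analysis was possible in PND42 males because the groups share fewer than 2 numbers. Some PND42 libraries rest on 11 to 46 reads of Pctp.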
